A study of Mus musculus with 16 samples.

Results

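The response of the normal mouse lung to ozone was measured on 8 of the 16 arrays of the series, chosen by the genotype and exposure in their titles. Each array held RNA from the left lung of 1 wildtype C57BL/6 mouse, taken directly after 72 h in room air (4 mice) or in 0.3 ppm ozone (4 mice). Each group had 2 males and 2 females, with a mean age of 14 weeks over the study, and its arrays are called M1, M2, F1 and F2 by sex and replicate number. The other 8 arrays came from mice genetically deficient in adiponectin, a hormone of fat cells, under the same exposures (2 males and 2 females each). They entered the fit that estimates the spread and were used for a comparison of the ozone response between genotypes.

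Ozone is an oxidant gas that reacts with lipids and proteins of the fluid and membranes lining the airways and alveoli. Cells at the bronchiole to alveolus junction are the best known site of its injury, and the lung answers with loss of damaged epithelium, inflammation, division of surviving progenitor cells and a temporary deposit of matrix. After days of continuous exposure these processes run side by side, so that a lysate of whole lung holds signals of injury and of repair. In such bulk RNA, fewer cells of a type and less RNA per cell cannot be told apart.

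Of the 8 arrays, 2 stood apart. The air array F1 carried fat: Adipoq, the gene of adiponectin, stood at 11.52 log2 intensity there against 7.19, 8.05 and 8.89 on the other air arrays and 7.70 to 8.76 in ozone. Cidec, a lipid droplet protein, was 8.67 there against 6.11 to 6.4 in air and 5.34 to 5.89 in ozone, and Ucp1 of brown fat was 7.25 against 4.62 to 5.18 on the other 7 arrays. Over 20 fat genes the mean deviation from the air group was 1.30 on air F1 and between -0.74 and -0.18 on the other 7 arrays, and 2 of the 20 fell with ozone (median -0.47). Without air F1 none of the 20 passed and their median was -0.05, and none passed without air M2. Without ozone F1 none of the 20 fell and 1 rose. The ozone array M2 carried neutrophil transcripts. The calprotectin subunit S100a9 was 14.31 there and 9.21, 9.12 and 9.16 on ozone M1, F1 and F2, below the air range of 9.30 to 11.46. Granule genes behaved alike on that array: Ngp was 12.17 against 5.53 to 6.06 on the other ozone arrays, Mmp8 was 11.57 against 5.70 to 6.05 and Camp was 9.58 against 4.88 to 4.99. The lung label was borne out by its defining transcripts, with Sftpc of alveolar type 2 cells between 14.51 and 14.62 and Scgb1a1 of club cells between 14.57 and 14.72 on all 8 arrays. For ozone F1 the description field says room air, against 3 other label fields that say ozone, so it was treated as ozone. Its Cdk1, at 9.06, lay in the range of the other ozone arrays, 9.01 to 9.44, and not in that of air, 6.37 to 6.82. Settings that moved a count of more than 3 genes by more than 1.5 times are named beside it, except the fits of males alone or females alone. Smaller counts move easily from 1 setting to another. The fits of 1 sex alone moved several counts that far. The T cell genes that fell were 13 on all arrays and 3 in males alone, and those of the VEGF list 10 and, in females alone, 3. The division genes that rose were 51 on all arrays, 50 in males alone and 44 in females alone.

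**Figure D1:**
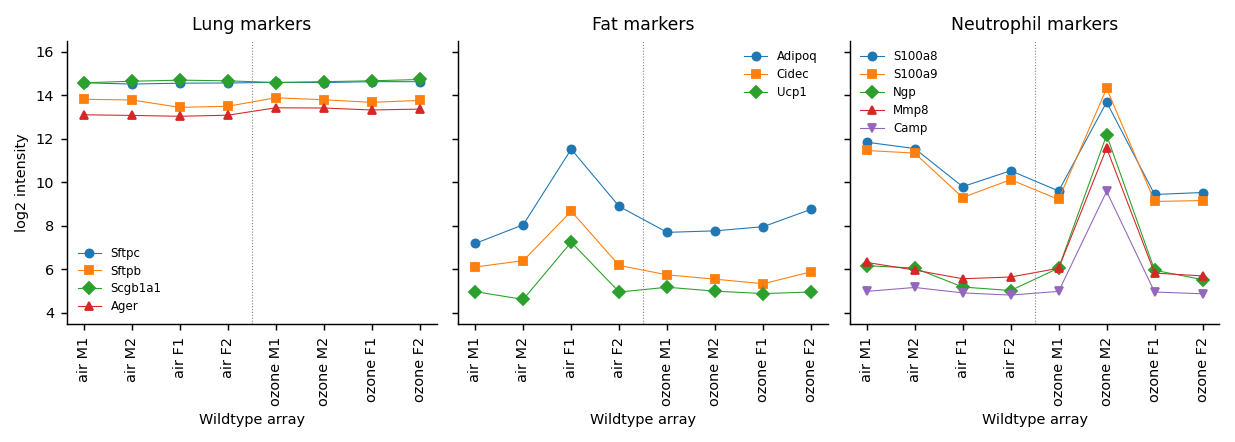
Log2 intensity of lung, fat and neutrophil marker genes (vertical axis) on each of the 8 wildtype arrays (horizontal axis, air left of the dotted line), 1 point per array. Adipoq reaches 11.52 on air F1, Ngp reaches 12.17 on ozone M2, and Sftpc stays between 14.51 and 14.62.

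The question of the comparison is which transcripts a 72 h ozone exposure changes in the wildtype lung. Differences are ozone minus air on the log2 scale with the SE of the limma fit, n = 4 arrays per group, and a gene is called at an adjusted p under 0.05. Of 12393 genes, 4546 were called, which is 36.7%, with 19.6% higher and 17.1% lower in ozone. The median change over all genes was 0.03. A call is therefore common, and each count of a gene group is read against these shares. Most calls were small: the median size was 0.36, and 3766 of the called genes moved less than 1.5-fold. A total of 102 genes rose and 67 fell at least 2-fold, and for 165 of these 169 the 4 ozone arrays lay wholly outside the range of the 4 air arrays. Over all genes that was so for 31.4%. Each array is a separate mouse by its replicate number. The SE and p-values of this comparison rest on a spread between mice pooled over both genotypes, and not on the wildtype mice alone. The SE of a gene can therefore differ from what its wildtype arrays alone would give.

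**Figure D2:**
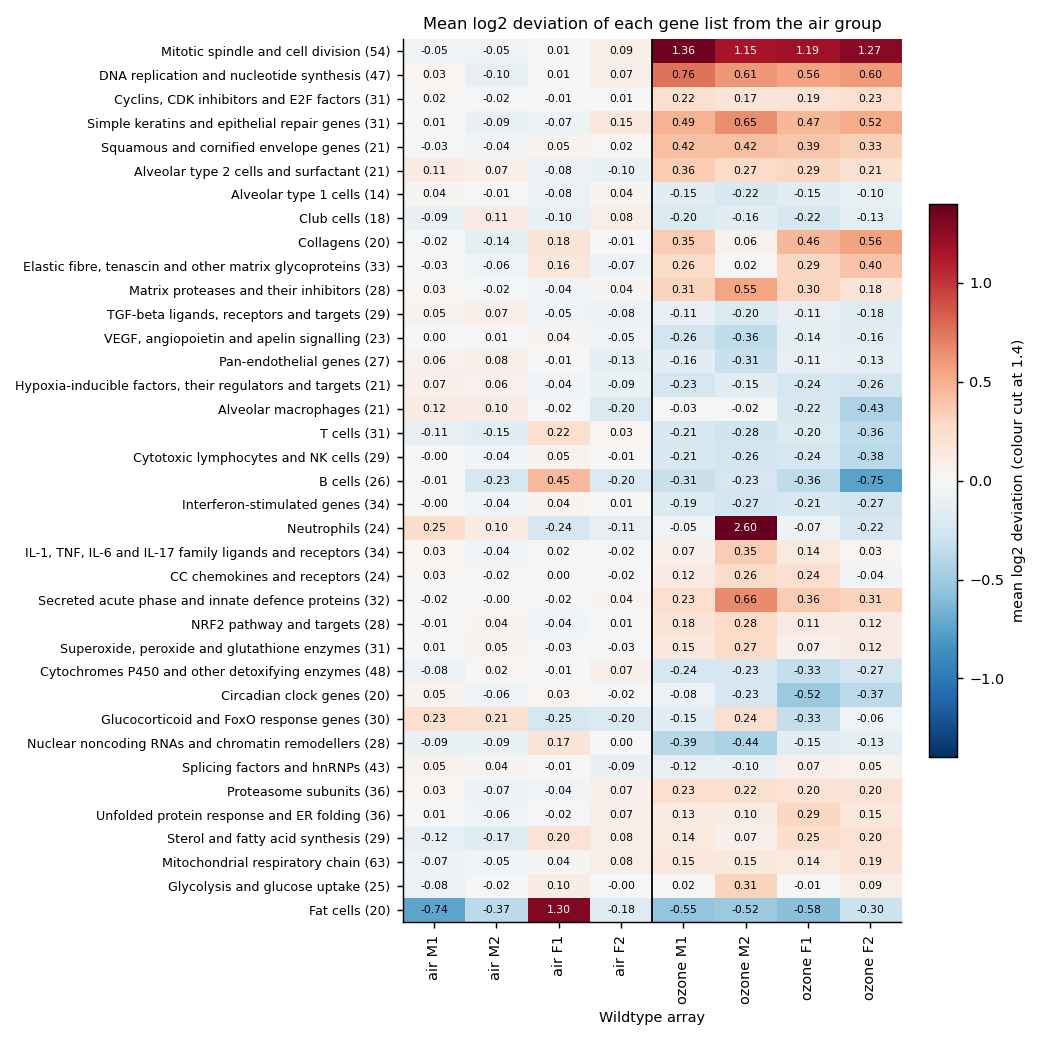
Mean log2 deviation from the air group (colour and printed number) of the measured genes of 37 gene lists (rows, number of genes in brackets) on each wildtype array (columns), with the colour cut at 1.4. Division genes stand at 1.15 to 1.36 on all ozone arrays and -0.05 to 0.09 in air, while the neutrophil list reaches 2.60 on ozone M2 alone and the fat list 1.30 on air F1 alone.

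Cell division had the largest median change of the 66 gene lists. Of 54 measured genes of the mitotic spindle and cell division, 51 rose (94.4%) and 2 fell, with a median of 1.16. Cdk1, the kinase that drives entry into mitosis, stood at 6.37, 6.52, 6.60 and 6.82 log2 intensity on air M1, M2, F1 and F2 and at 9.44, 9.01, 9.06 and 9.06 on the ozone arrays in that order. All ozone arrays lay far above all air arrays, with a difference of 2.56 ± 0.14 (5.91-fold, adjusted p = 1.44e-08). Cdc20, the activator of the anaphase-promoting complex, went from 6.69, 7.23, 7.19 and 7.33 to 9.52, 9.16, 9.46 and 9.85, and Ube2c, the ubiquitin-conjugating enzyme of the same complex, from 6.52, 6.80, 6.22 and 6.04 to 8.87, 8.89, 8.77 and 8.88. For both, the gap between the groups was wider than the spread within either. The 4 ozone values of Ube2c differed by little. Plk1, a kinase of spindle assembly, rose by 1.57 ± 0.13, Cenpa, the histone of centromeres, by 1.10 ± 0.11, and Ccnb2, a mitotic cyclin, by 2.02 ± 0.15. The members that fell were Smc4, a condensin subunit (-0.48), and Pttg1, securin (-0.25). The call of Pttg1 was lost without 3 of the single arrays.

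The promoters of 4 genes among the largest rises are shown because the members moved together and because cell cycle genes are known for a shared promoter layout. The CHR element, bound by the DREAM and MMB complexes, holds the letters TTTGAA, and CCAAT boxes, bound by NF-Y, lie a few turns of the helix before it. The 120 bases before the annotated start are given 5′ to 3′ on the gene's strand, from RefSeq on GRCm38.p6, with TTTGAA and CCAAT on either strand in capitals. Cdk1 is at chr10:69352913-69353032 (minus strand), Cdc20 at chr4:118437344-118437463 (minus strand), Ube2c at chr2:164769809-164769928 (plus strand) and Top2a, a DNA topoisomerase, at chr11:99024190-99024309 (minus strand). The 2 probe sets of Top2a changed by 2.42 and 0.13.
Cdk1: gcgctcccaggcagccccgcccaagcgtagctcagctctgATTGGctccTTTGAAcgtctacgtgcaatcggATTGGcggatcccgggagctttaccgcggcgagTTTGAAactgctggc
Cdc20: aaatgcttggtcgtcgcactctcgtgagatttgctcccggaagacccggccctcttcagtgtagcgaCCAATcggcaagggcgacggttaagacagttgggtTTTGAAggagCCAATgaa
Ube2c: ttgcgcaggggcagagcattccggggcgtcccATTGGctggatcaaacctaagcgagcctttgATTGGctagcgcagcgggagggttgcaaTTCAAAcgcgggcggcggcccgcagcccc
Top2a: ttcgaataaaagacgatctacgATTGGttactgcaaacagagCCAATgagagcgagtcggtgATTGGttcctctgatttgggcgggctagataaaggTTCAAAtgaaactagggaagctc
In each of these promoters a TTTGAA begins 15 to 29 bases before the start, and at least 1 CCAAT box begins farther out, 48 to 98 bases before it. Cdk1 holds a second TTTGAA at 71 and Cdc20 a second CCAAT at 8 bases before the start. Over the window of 250 bases before to 50 after the start, 31 of the 46 division genes with a promoter entry held TTTGAA on either strand (67.4%), against 20.2% of all 27025 genes in the promoter table and 15.4% of the tested genes. CCAAT was held by 33 of the 46 (71.7%) against 41.1% of all genes and 42.3% of the tested genes. Over all genes called higher in ozone TTTGAA was held by 16.1%, near the 15.4% of tested genes. These matches describe letters in a window and not binding.

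Genes of DNA replication and nucleotide synthesis rose too, by less: 36 of 47 rose (76.6%), none fell, and the median was 0.54. Mcm5, a subunit of the replicative helicase, was 6.57, 6.04, 6.52 and 6.44 in air and 8.58, 8.34, 8.28 and 8.2 in ozone, without overlap. The difference was 1.95 ± 0.11 (adjusted p = 3.14e-08). The same helicase's Mcm7 rose by 1.02 ± 0.09 and Mcm6 by 0.73 ± 0.08. Tk1, thymidine kinase, rose by 1.97 ± 0.10, Uhrf1, which recruits the maintenance DNA methyltransferase, by 2.07 ± 0.12, Hells, a chromatin remodeller of dividing cells, by 1.24 ± 0.10 and Pcna, the sliding clamp, by 0.64 ± 0.10. Tyms, thymidylate synthase, did not pass, at 0.08 (adjusted p = 0.473). Its values were 4.17 to 4.55 in air and 4.29 to 4.62 in ozone, the dim end of the scale.

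The E2F factors act at promoters of replication genes, and the 2 forms searched were TTTGGCGC and TTTCCCGC. The Mcm6 promoter shows the first form at 110 to 103 and at 47 to 40 bases before the start, in capitals, at chr1:128359706-128359825 (minus strand, GRCm38.p6, from RefSeq).
Mcm6: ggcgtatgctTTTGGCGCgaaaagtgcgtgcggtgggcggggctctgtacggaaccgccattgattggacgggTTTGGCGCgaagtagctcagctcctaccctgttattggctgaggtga
Of the 40 replication genes with a promoter entry, 7 held TTTGGCGC (17.5%) and 6 held TTTCCCGC (15%), against 0.585% and 1.24% of all genes. Among the tested genes these shares were 0.981% and 2.02%. The 46 division genes held each form once (2.17%).

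Regulators of the cyclin-dependent kinases moved in both directions, with 14 of 31 higher and 4 lower. Cdkn1a, the inhibitor p21, rose from 8.97, 9.31, 8.87 and 8.84 to 9.94, 10.54, 10.37 and 10.59, by 1.36 ± 0.19 (2.57-fold, adjusted p = 9.91e-05). The lowest ozone array, M1, still lay above the highest air array. The 4 that fell are all brakes on the cell cycle: Cdkn1b, the inhibitor p27 (-0.70 ± 0.10), Cdkn1c, the inhibitor p57 (-0.67 ± 0.07), and the pocket proteins Rbl2 (-0.60 ± 0.10) and Rb1 (-0.43 ± 0.12). Cks1b and Cks2, small subunits that dock kinases to their substrates, rose by 1.27 ± 0.10 and 1.17 ± 0.11, and cyclin D1, Ccnd1, rose by 0.64 ± 0.08. Among 18 targets of p53, 4 rose and 4 fell (22.2% each), close to the shares over all genes. Mdm2, the ubiquitin ligase of p53, fell by 0.38 ± 0.07 and Sesn1, sestrin 1, fell by 0.68 ± 0.06.

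Most simple keratins and epithelial repair genes rose. Of 31 measured, 19 rose (61.3%) and 1 fell, and the median was 0.55. Krt8, a keratin of simple epithelia that marks transitional cells in alveolar repair, was 11.17, 11.05, 11.06 and 11.67 in air and 12.18, 12.46, 12.13 and 12.28 in ozone. Air F2 was the highest control and still lay under every ozone array (1.03 ± 0.12, adjusted p = 2.52e-05). Its filament partner Krt18 rose by 1.11 ± 0.11, Krt7 by 0.82 ± 0.09 and Krt19 by 0.81 ± 0.11. Cldn4, a claudin that seals tight junctions and is known to rise in injured alveolar epithelium, went from 6.42, 6.34, 6.59 and 6.96 to 7.69, 8.14, 7.61 and 7.54 (1.17 ± 0.20). Cldn7 rose by 0.72 ± 0.07 and the adhesion molecule Epcam by 1.01 ± 0.11. Sfn, the 14-3-3 protein stratifin of epithelia, rose by 1.49 ± 0.27 and S100a14 by 2.16 ± 0.42. The basal cell keratins Krt5 and Krt14 did not pass, at 0.21 (adjusted p = 0.724) and -0.01 (adjusted p = 0.923). The SE of the Krt5 change, from the spread pooled over both genotypes, was 0.41, larger than the 0.09 of Krt7.

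Among 21 squamous and cornified envelope genes, 3 rose and none fell. Sprr1a, a small proline-rich protein that is crosslinked into envelopes and also appears in injured cells, was 5.56, 5.36, 5.49 and 5.93 in air and 9.02, 9.48, 9.34 and 9.55 in ozone. That 13.6-fold difference was the largest of the 12393 genes (3.76 ± 0.65). Tgm1, the transglutaminase that crosslinks such proteins, went from 5.68, 5.22, 5.68 and 5.56 to 7.10, 7.36, 7.38 and 7.06 (1.69 ± 0.37). Both genes were far apart between the groups on all arrays. Without 3 air arrays of both genotypes that carried markers of other tissues, 6 of the 21 rose, and 8 rose in a fit of the 8 wildtype arrays alone.

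Markers of differentiated epithelial cells moved in both directions. Of 21 genes of alveolar type 2 cells, 7 rose (33.3%) and none fell, and the largest rises were of Lcn2 and Il33, both also known from injury. Lcn2, the siderophore-binding lipocalin, was 10.53, 10.49, 10.02 and 10.28 in air and 11.84, 12.56, 12.02 and 11.83 in ozone (1.73 ± 0.22). Il33, an alarmin stored in type 2 cell nuclei, went from 10.08, 10.23, 9.92 and 9.95 to 11.14, 11.06, 11.52 and 11.10 (1.16 ± 0.15). For both, ozone and air arrays did not overlap. The surfactant genes Sftpc and Sftpb changed by 0.05 (adjusted p = 0.352) and 0.14 (adjusted p = 0.169), at the bright end of the intensity scale. Ager, the receptor of advanced glycation end products on alveolar type 1 cells, rose by 0.31 ± 0.07, while 6 of the 14 type 1 genes fell (42.9%), among them Cav1 (-0.37) and Cav2 (-0.48) of caveolae. Of 18 club cell genes, 4 fell and none rose. Fmo2, the lung's flavin monooxygenase, was 13.28, 13.22, 12.76 and 12.62 in air and 12.03, 12.10, 11.23 and 11.22 in ozone (-1.32 ± 0.12), higher in males than in females in both groups and lower after ozone in each sex. The club cell genes Scgb1a1 and Cyp2f2 did not pass, at 0.01 (adjusted p = 0.923) and -0.02 (adjusted p = 0.839). Among 22 mucin and goblet cell genes 8 rose (36.4%) and 1 fell, with 5 higher in a fit without sex. Slc26a4, the anion exchanger pendrin, rose from 5.41, 5.32, 5.55 and 5.71 to 7.19, 7.30, 8.41 and 7.28 (2.05 ± 0.20), with ozone F1 above the others. Of 12 ciliated cell genes, 1 rose and 3 fell.

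**Figure D3:**
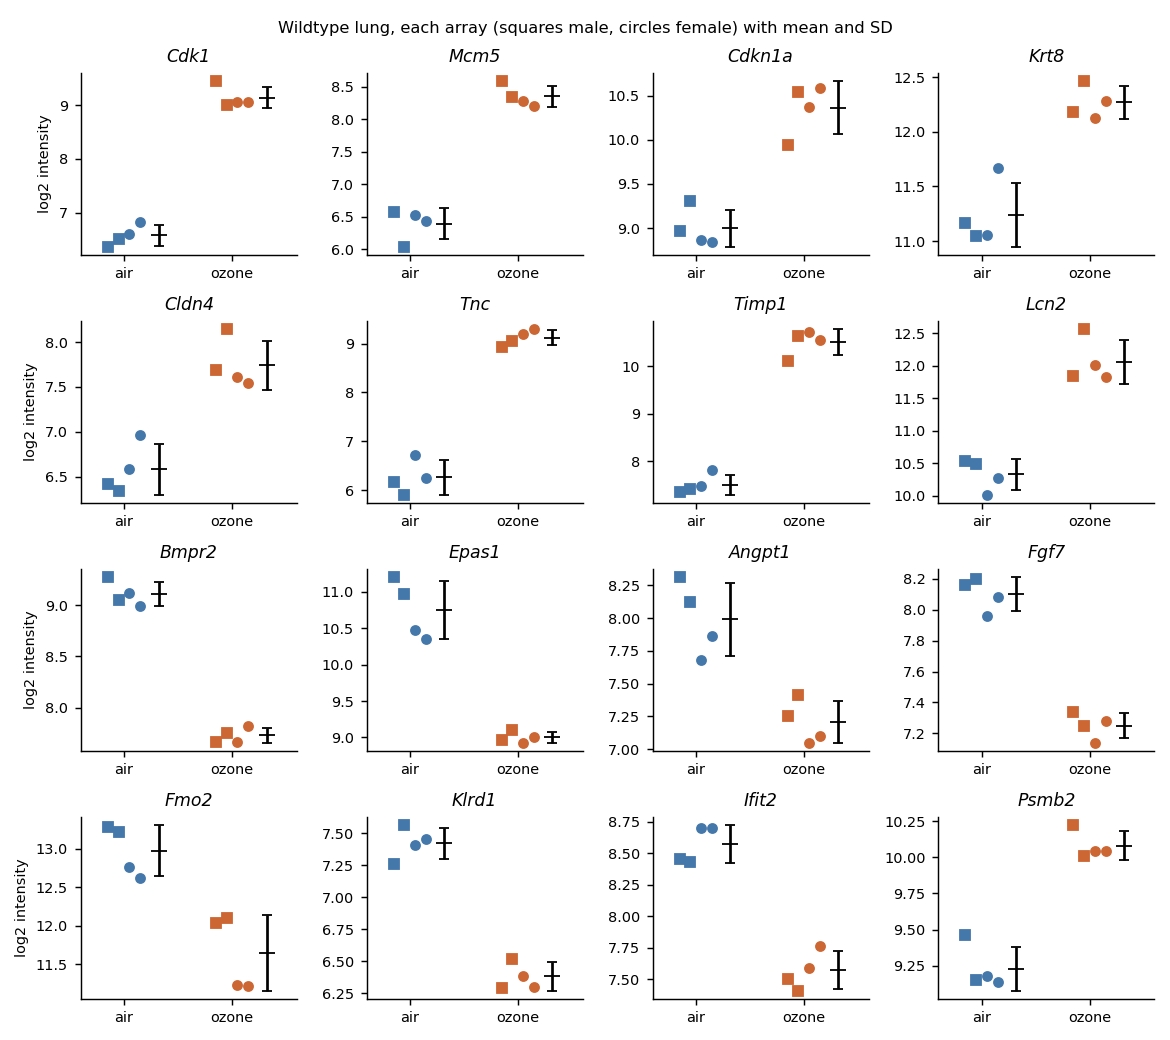
Log2 intensity (vertical axes, which differ between panels and do not start at 0) of 16 genes on the 4 air and 4 ozone arrays of wildtype mice (squares male, circles female), with the mean and SD of each group in black. In every panel the 4 ozone arrays lie outside the range of the 4 air arrays, as for Cdk1 (6.37 to 6.82 in air, 9.01 to 9.44 in ozone) and Epas1 (10.35 to 11.20 in air, 8.93 to 9.10 in ozone).

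Most collagens and part of the matrix glycoproteins rose. Tnc, tenascin C, was 6.16, 5.91, 6.73 and 6.25 in air and 8.94, 9.06, 9.20 and 9.29 in ozone (2.86 ± 0.21). Thbs1, thrombospondin 1, which activates latent TGF-beta, went from 8.84, 8.50, 7.95 and 8.32 to 9.96, 10.38, 9.85 and 9.55 (1.53 ± 0.23). Eln, elastin, went from 9.39, 9.37, 9.48 and 9.22 to 10.32, 10.53, 11.06 and 11.37 (1.46 ± 0.15). For each, the groups did not overlap, and for Eln both female ozone arrays lay above both male ones. Of 33 elastic fibre, tenascin and other matrix glycoproteins 11 rose and 5 fell, with a median of 0.11. Without air F1 and ozone M2 14 rose and 2 fell, and 3 fell in a fit without sex. Of 20 collagens 13 rose (65.0%) and 1 fell, with a mean deviation of 0.35, 0.06, 0.46 and 0.56 on the ozone arrays and 0.18 on air F1, so that the neutrophil-bearing ozone M2 lay below the fat-bearing air F1. Collagens that rose include Col1a1 (1.19 ± 0.16), Col5a1 (1.04 ± 0.13) and Col3a1 (0.81 ± 0.14). The fat-bearing air array F1 was the highest control for Col1a1, at 10.91 against 10.20 to 10.28 on the other air arrays. Of 18 enzymes that fold and crosslink collagen and elastin 10 rose and 3 fell. Serpinh1, the collagen chaperone, rose by 0.83, and the lysyl oxidases Loxl1 and Lox rose by 0.75 and 0.56.

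Proteases and their inhibitors moved in both directions. Of 28 measured, 10 rose and 4 fell. Timp1, a secreted inhibitor of metalloproteinases, was 7.35, 7.41, 7.47 and 7.81 in air and 10.12, 10.64, 10.73 and 10.55 in ozone (3.0 ± 0.16, adjusted p = 1.35e-08). The inhibitors Reck and Timp3 fell, and none of their ozone arrays reached the air range: Reck, which is anchored in the membrane, went from 10.55 to 10.64 in air to 9.44 to 10.05 in ozone (-0.84 ± 0.13), and Timp3, which binds to matrix, changed by -0.44 ± 0.06. Among the proteases, Mmp14, the membrane-bound collagenase, rose by 0.91 ± 0.08 and Mmp12, the macrophage elastase, by 0.84 ± 0.12.

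Of 29 genes of the TGF-beta and BMP family 13 fell (44.8%) and 6 rose (20.7%), with 3 higher in a fit without sex. Bmpr2, the type 2 BMP receptor whose loss of function is known from pulmonary arterial hypertension, was 9.27, 9.05, 9.12 and 8.99 in air and 7.67, 7.75, 7.67 and 7.82 in ozone. The groups were separated by more than 1 log2 unit, and the difference was -1.38 ± 0.11 (2.60-fold lower, adjusted p = 7.64e-07). The ligands Bmp4 and Bmp2 fell by 0.81 ± 0.10 and 0.72 ± 0.09, and the type 1 receptor Bmpr1a fell by 0.43 ± 0.07. Tgfb1, the ligand of the other branch, rose by 0.53 ± 0.09. Id1, a target of BMP signalling, rose by 0.73 ± 0.17, with 10.66, 10.63, 9.52 and 9.55 in air and 11.13, 10.63, 10.84 and 10.67 in ozone. Its groups overlapped, since the male air arrays stood about as high as the ozone arrays.

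Vessel genes were lower in part. Of 23 genes of VEGF, angiopoietin and apelin signalling 10 fell (43.5%) and none rose, with a median of -0.27. With the mean of all probe sets of a gene 6 fell and the median was -0.13. Angpt1, the ligand that stabilises vessels, was 8.31, 8.12, 7.68 and 7.86 in air and 7.25, 7.41, 7.05 and 7.10 in ozone (-0.79 ± 0.11). Its receptor Tek fell by 0.48 ± 0.07. Vegfa fell by 0.53 ± 0.12, with 10.84, 10.93, 10.75 and 10.67 in air and 9.97, 10.07, 10.59 and 10.45 in ozone, the male ozone arrays being the lowest. The VEGF receptors Kdr and Flt1 did not pass, at -0.26 (adjusted p = 0.221) and -0.09 (adjusted p = 0.446), although Kdr passed as lower without ozone M1 (-0.44). Of 27 pan-endothelial genes 8 fell and none rose, and 5 fell without air M1, without ozone M2, or without air F1 and ozone M2. Clec14a, an endothelial surface lectin, went from 11.58, 11.68, 11.53 and 11.45 to 10.90, 10.60, 10.69 and 10.78 (-0.82 ± 0.11), and the endothelial transcription factor Erg fell by 0.61 ± 0.13. The defining endothelial genes Pecam1 and Cdh5 did not pass, at 0.15 (adjusted p = 0.387) and 0.34 (adjusted p = 0.0759), although Cdh5 passed as higher without air M2 (0.44) or ozone M2 (0.43). Ednrb, the type B endothelin receptor of a lung capillary subtype, fell from 9.24, 8.93, 8.84 and 8.47 to 7.79, 7.62, 7.69 and 7.41 (-1.24 ± 0.16). Another probe set of Ednrb changed by -0.29.

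Among regulators of the hypoxia response, Epas1, the hypoxia-inducible factor 2 alpha abundant in lung endothelium and type 2 cells, fell most. It was 11.20, 10.97, 10.48 and 10.35 in air and 8.97, 9.10, 8.93 and 9.0 in ozone (-1.75 ± 0.11, 3.37-fold lower). The sexes differed in air and stood together in ozone, with a change of -2.05 in males and -1.45 in females (adjusted p = 0.294 for the difference between the sexes). Hif1a, the paralogous factor, did not pass, at -0.19 (adjusted p = 0.0564), and passed without ozone M2 (-0.22). Of 21 genes of this group 7 fell and 1 rose.

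Several growth factors and related genes fell. Fgf7, keratinocyte growth factor, a mitogen of alveolar type 2 cells, was 8.16, 8.2, 7.96 and 8.08 in air and 7.34, 7.25, 7.14 and 7.28 in ozone (-0.85 ± 0.07, adjusted p = 1.33e-06). Hgf, hepatocyte growth factor, fell by 0.54. Igfbp3, a carrier of insulin-like growth factors, went from 8.56, 8.89, 9.18 and 8.95 to 6.85, 7.10, 8.17 and 8.43 (-1.26 ± 0.21), with the male ozone arrays lowest. Prkg1, the cyclic GMP-dependent kinase of smooth muscle, fell from 6.61, 6.73, 7.20 and 6.78 to between 5.53 and 5.61 (-1.28 ± 0.10), and Ntn4, netrin 4 of basement membranes, fell by 1.27 ± 0.14. Of 35 genes of the EGF, IGF and FGF families 3 rose and 7 fell, shares of 8.57% and 20.0%, the latter near the 17.1% of all genes, and 5 rose without ozone F1.

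Some lymphocyte transcripts fell, and none of these lists held a gene that rose on all arrays. Of 29 genes of cytotoxic lymphocytes and natural killer (NK) cells 11 fell (37.9%) and none rose, with 7 lower without air F1 and ozone M2 and 5 of the 12 left without the dimmest 25% of genes. Klrd1, the CD94 subunit of NK receptors, was 7.26, 7.56, 7.41 and 7.45 in air and 6.29, 6.52, 6.38 and 6.30 in ozone (-1.04 ± 0.18), and Gzma, granzyme A, was 9.67, 9.92, 9.54 and 9.96 against 8.64, 8.70, 9.01 and 8.35 (-1.10 ± 0.25). Neither gene's ozone arrays reached the lowest air array. Of 31 T cell genes 13 fell (41.9%) and none rose, with 8 lower without air F1, without ozone F2 or without the 3 air arrays with markers of other tissues, and 7 without air F1 and ozone M2. The T cell receptor component Cd3e and the coreceptor Cd8a did not pass, at -0.08 (adjusted p = 0.563) and 0.01 (adjusted p = 0.890). Of 26 B cell genes 8 fell and none rose, but 3 fell without air M1, without air F1 or without ozone F2, and 2 without air F1 and ozone M2 or without those 3 air arrays. The mean deviation of the B cell list was 0.45 on the fat-bearing air F1 and between -0.23 and -0.01 on the other air arrays. 

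Interferon-stimulated genes were lower in part, among them GTPases that interferon gamma induces. Of 34 measured, 9 fell (26.5%) and 1 rose, while 16 fell and 2 rose in a fit of the 8 wildtype arrays alone. Ifit2 was 8.45, 8.43, 8.70 and 8.70 in air and 7.50, 7.41, 7.59 and 7.76 in ozone (-1.0 ± 0.14, adjusted p = 8.29e-05). The GTPases Gbp3, Ifi47, Igtp and Gbp2 fell by 0.90 ± 0.17, 0.85 ± 0.17, 0.83 ± 0.20 and 0.79 ± 0.16, each with all ozone arrays below all air arrays. The transcription factors of the pathway, Irf1 and Irf7, did not pass, at -0.01 (adjusted p = 0.902) and 0.08 (adjusted p = 0.767).

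Myeloid genes moved in both directions. Of 21 alveolar macrophage genes 5 fell (23.8%) and 2 rose (9.52%), against 17.1% lower and 19.6% higher over all genes. Siglecf, a lectin of alveolar macrophages and eosinophils, was 7.23, 6.70, 6.15 and 6.72 in air and 5.82, 5.55, 5.85 and 5.46 in ozone (-1.03 ± 0.16), and Fabp1 fell by 1.03 ± 0.22. The count that fell was 2 without air M2 and 3 without sex in the fit or without ozone M1, F1 or F2. Without ozone F2 4 rose and the list's median was 0.04, against -0.10 on all arrays. The macrophage genes Mrc1 and Chil3 did not pass, at -0.10 (adjusted p = 0.641) and -0.10 (adjusted p = 0.705), while Cd163, the hemoglobin scavenger receptor of macrophages, fell by 0.98 ± 0.24. Of 25 resistin-like, chitinase-like and alternative activation genes 10 rose and 2 fell, with 6 higher without ozone M1 or ozone F1. The largest rise of that list was of Retnla, a resistin-like protein (2.76 ± 0.16, adjusted p = 3.92e-08). It was 9.86, 10.51, 10.69 and 11.19 in air and 13.22, 13.12, 13.61 and 13.36 in ozone. Ccl17, a ligand of CCR4, rose from 7.60, 7.42, 6.91 and 7.92 to 8.99, 9.05, 9.85 and 8.91 (1.74 ± 0.24). Fscn1, the actin bundler of mature dendritic cells, rose from 7.49, 7.25, 7.67 and 7.56 to 8.18, 7.84, 9.36 and 9.27 (1.17 ± 0.18), with the female ozone arrays more than 1 log2 unit above the male ones. The monocyte attractants Ccl2 and Ccl7 rose by 0.50 ± 0.10 and 0.43 ± 0.09. Hdc, histidine decarboxylase of mast cells, basophils and neutrophils, rose by 0.97 ± 0.17.

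Counts of neutrophil genes turned on ozone M2. Of 24 measured, 3 rose and none fell, while 2 rose and 3 fell without ozone M2. The mean deviation of the list was 2.60 on ozone M2 and between -0.22 and -0.05 on the other ozone arrays, against -0.24 to 0.25 in air. S100a8 changed by -0.37 (adjusted p = 0.722), Ngp by 1.82 (adjusted p = 0.159) and Mmp8 by 1.41 (adjusted p = 0.218). Without ozone M2 both calprotectin genes passed as lower, S100a8 at -1.36 and S100a9 at -1.33. Several genes that rose were highest on ozone M2 as well, with all ozone arrays still above all air arrays: Gsr was 10.20 there and 9.11 to 9.19 on the other ozone arrays, Mt2 was 10.99 and 9.69 to 9.86, and Glrx was 10.01 and 9.14 to 9.23. Each kept its call without that array. The part of neutrophils in the size of these changes was not tested.

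Cytokine genes moved in both directions. Of 34 genes of the IL-1, TNF, IL-6 and IL-17 families 11 rose and 4 fell, with 7 higher without air F1 and ozone M2 and 2 lower without ozone F2. Socs3, the feedback inhibitor that STAT3 induces, was 8.59, 8.59, 8.59 and 8.83 in air and 9.22, 9.88, 9.88 and 9.47 in ozone (0.96 ± 0.20), and Stat3 itself rose by 0.58. Among receptor chains of the IL-6 family, Il6ra fell by 0.89 ± 0.13 and Lifr by 0.80 ± 0.13. Il6, the ligand, did not pass, at 0.43 (adjusted p = 0.0904), although its ozone arrays, 4.53 to 5.04, all lay above the air arrays, 4.32 to 4.42. Il18r1, a receptor chain for IL-18, rose by 0.80 ± 0.08.

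Antioxidant genes rose more often than they fell, and detoxifying enzymes fell more often than they rose. Of 28 genes of the NRF2 pathway, which answers electrophiles and oxidants, 12 rose (42.9%) and 1 fell. Gclc, the catalytic subunit of glutathione synthesis, was at most 11.13 on any air array and at least 11.55 on any ozone array (0.69 ± 0.09), and Gsr, glutathione reductase, rose by 0.82 ± 0.17. Akr1b8, an aldo-keto reductase, rose by 0.81 ± 0.11, Txnrd1, thioredoxin reductase, by 0.46 ± 0.08 and Hmox1, heme oxygenase 1, by 0.41 ± 0.08. Well-known targets did not pass: Nqo1 changed by 0.11 (adjusted p = 0.338) and Gclm by 0.05 (adjusted p = 0.682). The ARE core TGACNNNGC was held by 8 of 24 promoters of the group (33.3%) against 14.0% of all genes and 16.3% of the tested genes. Of the promoters of the replication list 22.5% held it. Of 31 superoxide, peroxide and glutathione enzymes 12 rose and 4 fell. The metal-binding metallothioneins Mt1 and Mt2 rose by 1.10 ± 0.16 and 1.51 ± 0.26, and the NADPH oxidase Nox4 fell from 9.96, 10.41, 10.11 and 9.73 to 9.42, 9.17, 8.87 and 9.07 (-0.92 ± 0.12).

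Of 48 cytochromes P450 and other detoxifying enzymes 16 fell (33.3%) and 3 rose (6.25%). Fmo1 was 11.90, 12.07, 11.87 and 11.96 in air and 11.07, 10.97, 11.15 and 11.13 in ozone (-0.87 ± 0.10), and the related Fmo5 fell too (-0.82 ± 0.11). Sult1a1, a phenol sulfotransferase, fell by 0.99 ± 0.17, Ephx1, microsomal epoxide hydrolase, by 0.72 ± 0.08 and Ahr, the aryl hydrocarbon receptor, by 0.77 ± 0.14. Among eicosanoid enzymes Ptges, which makes prostaglandin E2, rose by 0.85 ± 0.19 and Hpgd, which degrades it, fell by 0.73 ± 0.08. Hpgd was 12.77, 12.94, 12.52 and 12.60 in air and 12.11, 12.07, 11.69 and 12.03 in ozone. The whole list of 21 gave 3 higher and 4 lower, and without air F2 1 rose and 1 fell, without air M2 or ozone M1 1 and 2, and without ozone M2 1 and 4. Without ozone F1 3 of the list rose and 2 fell. Lrat, which stores retinol as esters, fell by 1.85 ± 0.37, with a wide spread from 5.08 to 6.94 in ozone and 7.39 to 8.6 in air.

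Part of the clock genes fell, and some stood lowest in females in ozone. Of 20 genes of the circadian clock 8 fell (40.0%), 3 rose and 9 did not pass. The PAR-domain output factor Hlf was 8.95, 8.78, 9.29 and 8.83 in air and 8.26, 7.59, 7.25 and 7.49 in ozone (-1.31 ± 0.23), and the repressor Nr1d2 was 11.62, 11.33, 11.43 and 11.49 against 10.73, 10.45, 9.97 and 10.12 (-1.15 ± 0.17). Both lay wholly lower in ozone, and lowest in females. The period genes Per3 and Per2 changed by -1.07 ± 0.18 and -1.07 ± 0.20 and Cry2 by -0.49 ± 0.09, all called, while Nfil3, which opposes the PAR-domain factors, rose by 0.92 ± 0.19. Another probe set of Per3 changed by 0.02. Dbp did not pass (-0.93, adjusted p = 0.107): it was 10.73 and 9.79 in male air and 10.59 and 9.83 in male ozone, but 11.28 and 11.16 in female air and 9.09 and 9.73 in female ozone. Without ozone M1 it passed, at -1.26. The list's median was -0.09 in males and -0.49 in females. None of these genes passed the test of that difference (Dbp, adjusted p = 0.326, Hlf, adjusted p = 0.398). The hour at which each mouse was killed is not stated in the labels.

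Among glucocorticoid and FoxO response genes 11 of 30 fell (36.7%) and 5 rose. Fbxo32, the FoxO target atrogin 1, fell by 1.57 ± 0.25, and another of its probe sets changed by -0.05. Ccng2, cyclin G2, fell by 0.81 ± 0.10. The glucocorticoid targets Tsc22d3 and Fkbp5 stood apart by sex in air: Tsc22d3 was 12.01 and 12.15 in male air against 10.27 and 10.25 in female air, and 11.47, 11.79, 10.38 and 11.19 in ozone. Fkbp5 gave the same picture, at 9.61 and 9.90 in male air, 8.12 and 8.19 in female air and 8.95, 9.73, 8.52 and 8.92 in ozone. Neither passed for ozone, Tsc22d3 at 0.04 (adjusted p = 0.916) and Fkbp5 at 0.08 (adjusted p = 0.795).

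**Figure D4:**
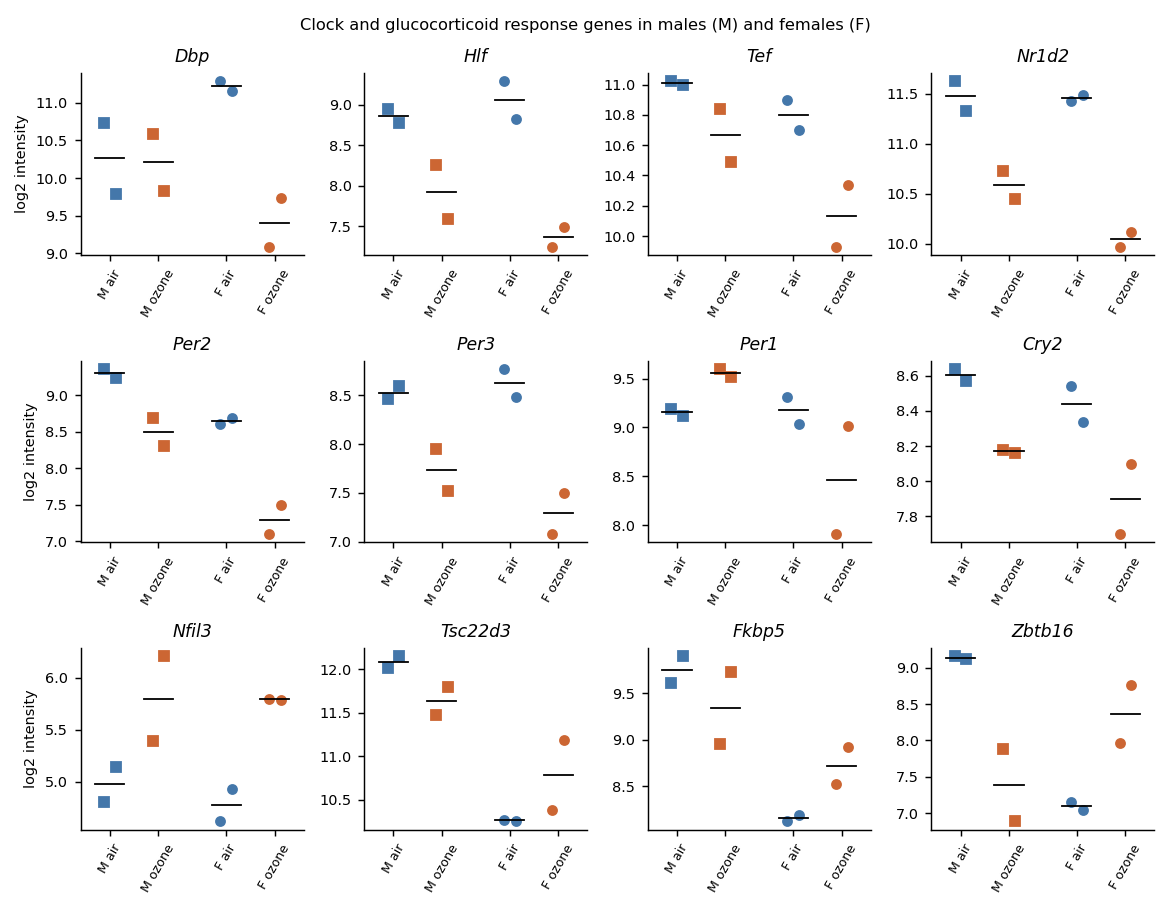
Log2 intensity (vertical axes, which differ between panels and do not start at 0) of 9 clock and 3 glucocorticoid response genes in wildtype males (M, squares) and females (F, circles) in air and ozone, 2 arrays per point group with their mean as a line. Dbp goes from 11.28 and 11.16 to 9.09 and 9.73 in females and stays at 9.79 to 10.73 in males, and Tsc22d3 in air is 12.01 and 12.15 in males and 10.27 and 10.25 in females.

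Part of the nuclear noncoding RNAs and chromatin remodellers fell, with probe sets of a gene that disagreed. Of 28 measured, 12 fell (42.9%), 4 rose and 12 did not pass, and the median was -0.20. Malat1, a nuclear noncoding RNA, was 12.51, 12.63, 12.77 and 12.03 in air and 10.04, 10.06, 10.71 and 11.23 in ozone (-1.98 ± 0.25), while the changes of its 5 probe sets ranged from -2.90 to -0.15. Atrx, a chromatin remodeller, fell by 1.49 ± 0.19, with probe sets from -1.79 to -0.03, and Kdm5a, a histone demethylase, fell by 1.38 ± 0.20. Neat1, the scaffold RNA of paraspeckles, did not pass (-0.37, adjusted p = 0.102) but did without air F2 (-0.61). Of 43 splicing factors and hnRNP proteins 12 fell and 8 rose. Hnrnpu went from 11.60, 11.42, 11.53 and 11.33 to 10.27, 10.35, 10.53 and 10.56 (-1.05 ± 0.15) on its brightest probe set, and another of its probe sets changed by 0.49, whereas Hnrnpl rose by 1.05 ± 0.14. Over all genes, 184 had 1 probe set called higher and another called lower. RNA integrity was compared by the 3′ and 5′ control probe sets of Gapdh and Actb. The log2 difference between them was 0.07 ± 0.15 in air and 0.16 ± 0.13 in ozone for Gapdh (SD, n = 4 each, two-sided exact permutation p = 0.343) and 0.38 ± 0.12 and 0.39 ± 0.10 for Actb (exact permutation p = 0.914). The smallest p that 4 against 4 arrays allow is 0.0286.

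Genes of protein turnover and secretion rose more often than they fell. Of 36 proteasome subunits 16 rose (44.4%) and none fell. Psmb2, a subunit of the core ring, was 9.46, 9.15, 9.18 and 9.14 in air and 10.22, 10.01, 10.04 and 10.04 in ozone (0.85 ± 0.08, adjusted p = 4.28e-06). Psmd3 of the regulatory lid went from 8.67, 8.67, 8.75 and 8.78 to 9.49, 9.42, 9.45 and 9.44 (0.73 ± 0.06), and the catalytic subunit Psmb5 rose by 0.64 ± 0.06. Of 36 genes of the unfolded protein response and folding in the endoplasmic reticulum 15 rose (41.7%) and 6 fell, with 3 lower without ozone M1, without sex in the fit or with the mean of all probe sets. Sdf2l1, a cofactor of the chaperone BiP, rose by 1.20 ± 0.11 and Pdia6, a disulfide isomerase, by 0.61 ± 0.08, whereas Hspa5, BiP itself, did not pass (0.23, adjusted p = 0.0783) but did without air M1 (0.31) or ozone F2 (0.29). Of 37 heat shock proteins and chaperones 7 rose (18.9%, near the 19.6% of all genes) and 2 fell. Without ozone M2 15 of the 37 rose, and 12 rose with the mean of all probe sets.

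Genes of energy metabolism rose more often than they fell, except those of fatty acid oxidation. Of 63 subunits of the mitochondrial respiratory chain 26 rose (41.3%) and 2 fell, with a median of 0.16. In glycolysis 7 of 25 rose and 1 fell, and 4 rose without ozone M2. Pkm, pyruvate kinase, was 11.01, 11.05, 11.02 and 10.98 in air and 11.72, 11.96, 11.49 and 11.56 in ozone (0.67 ± 0.10), and Ldha and Pgk1 rose by 0.66 ± 0.09 and 0.65 ± 0.09. Of 29 genes of sterol and fatty acid synthesis 10 rose (34.5%) and 1 fell, among them the mevalonate pathway enzymes Fdps, Mvd and Mvk (0.64 ± 0.13, 0.61 ± 0.11 and 0.56 ± 0.07) and the sterol demethylase Cyp51 (0.64 ± 0.13). Acaa1b, a peroxisomal thiolase, had the largest fall of all named genes, from 7.34, 7.11, 6.19 and 6.17 to 4.89, 5.03, 4.34 and 4.44 (-2.03 ± 0.22). Of 37 genes of fatty acid oxidation and peroxisomes 6 rose and 6 fell. Of these 37, 2 fell without ozone M2 and 2 without both air F1 and ozone M2. The falls were 3 without air F2 or the dimmest 25% of genes, and 10 with the mean of all probe sets. Shmt1, the cytosolic serine hydroxymethyltransferase of one-carbon metabolism, rose from 7.69, 7.80, 7.76 and 7.69 to 9.42, 9.83, 9.48 and 10.12 (1.98 ± 0.31). The changes of its 4 probe sets ranged from 0.02 to 1.98.

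Further lists gave the following counts. Of 32 secreted acute phase and innate defence proteins 11 rose (34.4%) and none fell, with a median of 0.17 and a mean deviation that was highest on ozone M2, 0.66 against 0.23 to 0.36 on the other ozone arrays. Of 34 cytosolic ribosomal proteins 8 rose and none fell, with 4 higher without air F1 and ozone M2, 5 without the 3 air arrays with markers of other tissues, and a median of 0.01. Of 33 ribosome biogenesis genes 13 rose (39.4%, against 19.6% of all genes) and 2 fell, with a median of 0.13. Of 20 smooth muscle genes 7 rose and 1 fell, with 4 higher without air M1, air F2 or ozone F1 and 2 in a fit without sex. Of 18 cardiac muscle genes none was called on all arrays and 4 fell without air M1. Of 33 AP-1 and immediate early genes 9 rose and 3 fell, and the falls were 0 or 1 without each of air M1, air M2, air F2, ozone F1 and ozone F2. Of 28 iron and heme genes 8 rose and 4 fell, with 2 lower without air M2 or without sex in the fit. Of 33 epithelial channel and junction genes 9 rose and 3 fell, with a median of 0.04, and 6 fell without the 3 air arrays with markers of other tissues. Among immune lists, 3 of 27 genes of monocytes and interstitial macrophages rose and 2 fell. Of these 27, 5 fell without ozone M2 and without air F1 and ozone M2, 1 without air M1, air M2, ozone M1 or ozone F2, and none in a fit without sex. Of 21 dendritic cell genes 5 rose and 3 fell. Of 14 genes of plasma cells and IgA transport 6 rose and 2 fell, and of 24 CC chemokines and receptors 6 rose and 3 fell, with 3 higher of the 14 of these left without the dimmest 25% of genes.

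Adiponectin deficiency changed no gene's ozone response past the threshold. The genotype by ozone interaction called 0 of 12393 genes (0.0%) in limma, with a smallest adjusted p of 0.673, and 605 genes had an unadjusted p under 0.05 (4.88%). Both genotypes called 2995 genes in the same direction and none in opposite directions, and of the 169 genes that moved at least 2-fold in wildtype mice 161 were called in the same direction in deficient mice. Both comparisons have their own air and ozone arrays and share the estimate of the spread. The interaction with the smallest p was Saa3, an acute phase protein of the lung, which rose by 1.56 ± 0.34 in wildtype and 3.99 ± 0.34 in deficient mice. In wildtype mice it was 7.06, 7.28, 7.68 and 7.58 in air and 8.50, 9.33, 8.91 and 9.13 in ozone. Kank2, an adaptor of integrin adhesions, fell by 1.03 ± 0.07 in wildtype and 0.55 ± 0.07 in deficient mice. Mbd4, a DNA glycosylase, fell by 0.38 in wildtype mice and changed by 0.14 in deficient mice, Leng1 by -0.50 and -0.12, and Aaas of the nuclear pore by 0.40 and 0.86. All have an adjusted p of 0.673, so none of these differences passed. Igtp, which fell by 0.83 in wildtype mice, changed by 0.02 in deficient mice, and Gzma by -1.10 and -0.25, with no call for the difference.

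**Figure D5:**
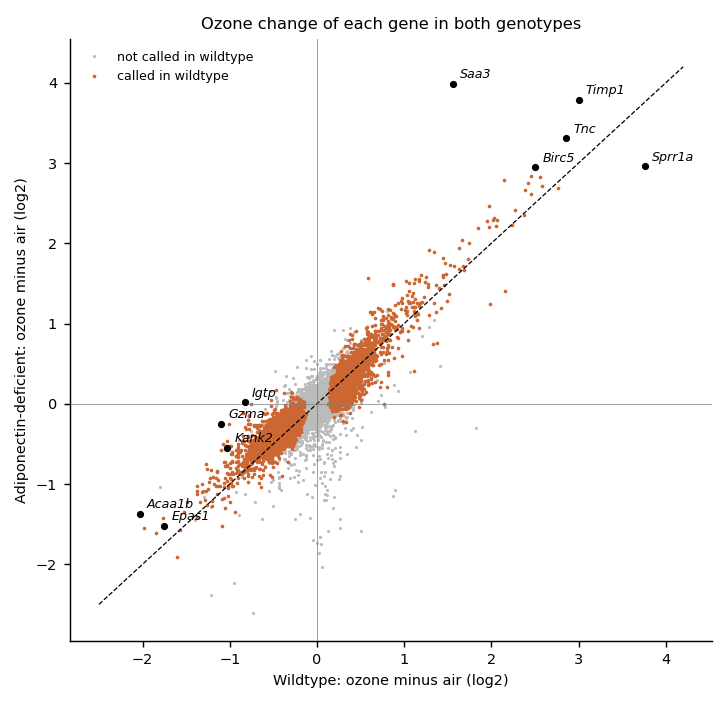
Change for ozone against air in log2 units for each of 12393 genes in wildtype mice (horizontal axis) and adiponectin-deficient mice (vertical axis), with genes called in wildtype mice in orange and the line of equal change dashed. Timp1 lies at 3.0 and 3.79, Saa3 at 1.56 and 3.99, and no gene called in both genotypes lies in opposite quadrants.

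The sexes gave the same direction for 4541 of the 4546 called genes. The call itself rests on the mean of the male and female changes. That count was therefore largely set by the call and does not measure how far the sexes agree. With 2 arrays per sex and exposure, the ozone by sex interaction in wildtype mice called 2 genes (0.0161%). Of the 12393 genes, 1429 had an unadjusted p under 0.05 in this limma test, against 605 in that of the genotype interaction. The count was 75 without ozone M1 and 0 or 1 without each of the other arrays. Crebzf, a basic leucine zipper factor, fell in males from 7.56 and 7.62 to 6.47 and 6.48 and in females from 7.26 and 7.22 to 7.01 and 7.08, a change of -1.11 against -0.19 (adjusted p = 0.0309). Another of its probe sets changed by 0.33 over both sexes. Uty, a histone demethylase homologue on the Y chromosome, fell in males from 6.51 and 6.93 to 5.04 and 5.35, and its female arrays, 4.04 to 4.16, stand for a probe set whose gene females lack. The median change of all genes was 0.07 in males alone and -0.01 in females alone.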

How the data were processed

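Total RNA of the left lung was hybridised to 1 Affymetrix array per mouse (16 arrays). The deposited values are linear intensities made with RMA, per the submitters' processing notes, which subtracts background and sets all arrays to 1 distribution. A change common to most genes is therefore removed, and low genes are compressed. The authors' intensities were turned into log2 values here. Of 22690 probe sets, 20380 had 1 gene symbol in the platform annotation, 691 several and 1555 none. Where a gene had several, its brightest one by the mean of 16 arrays stood for it, which gave 12393 genes. The number of arrays limits the precision.

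Limma 3.58.1 (R 4.3.3) fitted the 4 groups of genotype and exposure plus sex to all 16 arrays. The contrasts were ozone minus air in wildtype mice, its difference from deficient mice and, in a model of 8 groups, its difference between the sexes, with Benjamini-Hochberg adjusted p-values over all genes. The fits were tested on simulated data. Tables and figures were made in Python 3.11.15 (pandas 2.3.3, matplotlib 3.10.9). The comparison, the 66 gene lists and the alternatives were chosen with earlier results of these data known. Genes were named by a rule: the 25 largest rises and 25 largest falls without overlap, up to 6 called members of each list by size, any list member as a value with its p, and the genes of smallest p for each interaction. The text prints a selection of these, and genes whose call was lost without 1 array were mostly left out. Promoters are RefSeq sequences of GRCm38.p6, searched on both strands from 250 bases before to 50 after the start.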

Additional observations from a re-analysis of the deposited data

Results flagged for a closer look

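Of 362 groups of 4 arrays, 1 per exposure for each named gene other than Retnla, 25 (6.91%) held an array set far apart from the other 3. Chance gives about 1 in 20 for genes chosen blindly. Fat and neutrophil genes were named here because air F1 or ozone M2 stood apart on them, so the share cannot be read against that rate. The values are log2 intensities. On ozone M2 the neutrophil genes S100a9 (14.31), S100a8 (13.68), Ngp (12.17), Mmp8 (11.57) and Camp (9.58) stood highest, as did Mt2 (10.99), Gsr (10.2), Glrx (10.01) and Prkg1 (5.61). On air F1 the fat genes Cidec (8.67) and Ucp1 (7.25) and the collagen gene Col1a1 (10.91) stood highest and Cks2 (7.12) lowest.

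On ozone F1, Ccl17 (9.85) and Slc26a4 (8.41) stood above the other ozone arrays, and Ube2c (8.77), Cry2 (7.7) and Fabp1 (6.53) below them. On ozone M1, Psmb2 (10.22) and Cdk1 (9.44) stood highest and Mvk (7.78) lowest. In air, Psmb2 was highest on M1 (9.46), Mt1 on M2 (10.81) and Socs3 on F2 (8.83), and Tk1 was lowest on F2 (5.47). Several of these gaps, such as that of Mvk below 7.83 to 7.84, are small in size.

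In wildtype mice the ozone change differed between males and females by -0.92 for Crebzf and by -1.46 for Uty (limma interaction, adjusted p = 0.0309 each), with 2 arrays per sex and exposure. Uty lies on the Y chromosome, which females lack, so its difference reflects the male change alone.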

How the results depend on the processing

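The count of 4546 genes called for ozone lay between 3750 and 4284 when 1 array was left out and was 3597 without air F1 and ozone M2. It was 1705 in females alone, 7583 of 20380 with every probe set on its own, 2740 at an adjusted p under 0.01 and 780 with a fold of at least 1.5. A total of 3093 of the 4546 kept the call without each wildtype array in turn. The genotype interaction called 1 gene in females alone and 0 in every other fit that was run. The sex interaction called 0 genes on the wildtype arrays alone, without the dimmest 25% of genes, with the mean of all probe sets, at an adjusted p under 0.01 and without air F1 and ozone M2. It called 1 with an intensity trend, 1 without the 3 air arrays (of both genotypes) holding transcripts of other tissues, 4 with every probe set, and 0 to 75 with 1 array left out. The Actb 3′ to 5′ difference lay between -0.04 and 0.05 with 1 array left out, on both sides of 0. With the replicate number as a block (replicate block) 4443 genes were called and 0 for the interaction. Same-numbered arrays deviated together with correlations from -0.308 to 0.004, which gave no sign of pairing, and what the numbers mark is not stated in the labels. Of 147 named genes that were called, 12 lost the call in males alone, 18 in females alone, Uty without the sex term, air M2 or ozone M1, Crebzf with the mean of its probe sets, and Pttg1 without air M1, air F2 or ozone F2. None of them lost it under the other settings that tested them, and none turned its direction. Retnla was not among these 147 genes. Genes whose call was lost without 1 array had mostly been left out of the text. The stability of the named genes was therefore partly set by that choice and does not stand for all called genes. The alternative without 3 air arrays was chosen after seeing the data. The cause of these shifts was not tested.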
